A study of Saccharomyces cerevisiae with 46 samples.

Results

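The lines of budding yeast described here are those of the 3 letters with a full set of 4 lines, A1 to A4, C1 to C4 and D1 to D4. Each of these 12 lines had 1 evolved and 1 non-evolved sample, which made 24 of the 46 samples of the series. They were chosen by their labels alone. All were overnight cultures of Saccharomyces cerevisiae in the W303 background, sequenced from genomic DNA, and the series is titled for aneuploidy, an uneven chromosome number, in cells that lack Bub3. The labels name no allele, marker, mating type or ploidy for any line, nor how a line was evolved or how the lines of a letter are related, and letters B, E, F and G have fewer than 4 lines. A wildtype strain, LY1, had 1 evolved, 1 non-evolved and 1 evolved_Bub3 sample, and line C2 had an evolved_Bub3 sample as well. There was 1 sample per line and state, so a difference between lines was set against the spread between the states of the same line, and it is not known whether that spread is biological.

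Bub3 is a protein of the spindle assembly checkpoint, which keeps a dividing cell from entering anaphase while a chromosome is still unattached, and it also brings checkpoint proteins to the kinetochore. LEU2 encodes an enzyme of leucine synthesis and is widely used as a selectable marker in yeast strains. HMR is the silent mating-type locus on the right arm of chromosome III, the store of the a cassette in the reference strain S288C, while the active MAT locus of that reference carries the alpha cassette. When a diploid yeast cell undergoes meiosis it forms a tetrad of spores, and an allele that differs between its homologous chromosomes goes to one pair of spores and not to the other. Loci on different chromosomes, or far apart on one, are shared out independently of each other. Whether the 4 lines of a letter are such spores is not stated in the labels.

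Read depth was deposited as log2 copy ratios in bins of 1000 bases, from which whole reads could be recovered. The 24 samples held 2072024 to 3656612 reads, and their median bin held 169 to 266 reads in the evolved and 130 to 262 in the non-evolved samples. The level of a bin below is its log2 copy ratio minus the median of its chromosome in the same sample, so that a gained chromosome does not raise its own bins, and 1 on this scale is a doubling. A bin counts every read that aligned to it, wherever in the genome the sequenced copy lies. Bins were kept when they had reads in at least 50% of the samples, which left 11810 of 12079 nuclear bins.

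A bin was said to split the lines of a letter 2 to 2 when 2 lines stood at least 0.5 above the other 2 in the evolved and in the non-evolved samples, with the same lines high. This held for 8 bins in letter A (0.0677% of the bins), 11 bins in C (0.0931%) and 7 bins in D (0.0593%). Uneven splits were found by the same rule. A single line was low in 8, 15 and 9 bins of A, C and D (0.0677%, 0.127% and 0.0762%), and a single line was high in 10, 7 and 3 bins (0.0847%, 0.0593% and 0.0254%). Without the demand on the other state, 56 bins split 2 to 2 in the evolved and 71 in the non-evolved samples of A, 66 and 62 in C, and 74 and 70 in D.

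These bins fell into 2 kinds by read depth, parted at 20 reads, a boundary set after the data were seen. Of the 26 splits, 12 lay in bins with a median of 0.5 to 19 reads, and none of those bins split more than 1 letter. Some lay in Ty retrotransposon reading frames (YLR256W-A in A, YGR161W-B in C, YBL005W-B in D) or in genes of repeated families, such as VTH1 in A and the seripauperin genes PAU6 and PAU19 and the enolase-related ERR2 in C. The rest lay in YCR108C in C, YPR204W in D, and bins with no listed gene. Reads of such repeats can be divided between copies. The other 14 splits lay in 8 bins with a median of 47.5 reads or more: the BUB3 and LEU2 bins, a bin beside LEU2, an HMR bin, the last bin of chromosome IX, and a bin near the left end of VI that holds YFL064C and YFL065C. Just inside the rule stood that VI bin in C (smaller gap 0.55), and just outside it a neighbouring bin on VI in A and the HMR bin in C (0.49 each).

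**Figure D1:**
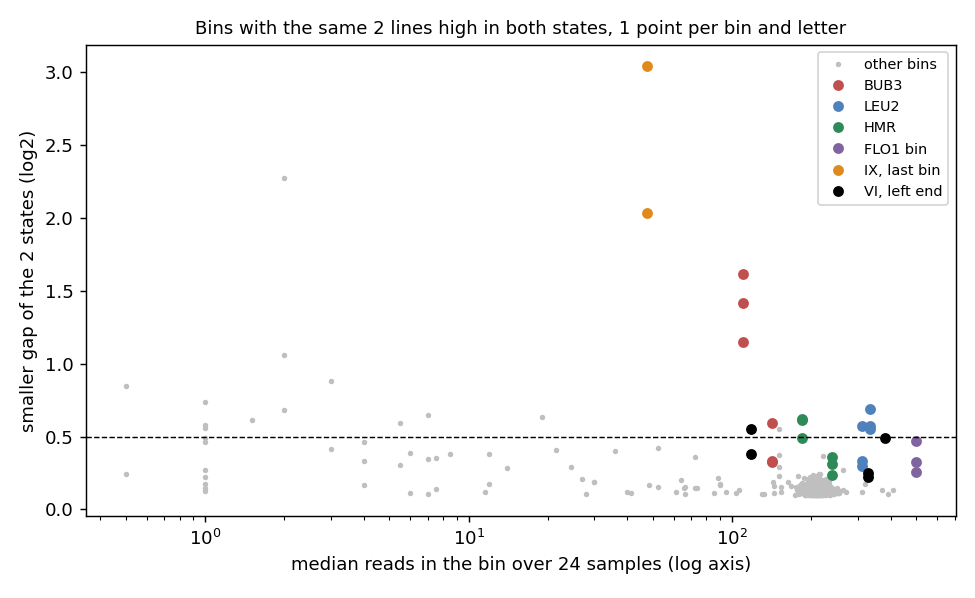
Median reads in a bin over the 24 samples (log axis) against the smaller of its evolved and non-evolved gaps (log2) between the 2 high and 2 low lines, with 1 point per bin and letter where the same lines were high in both states and the gap was at least 0.1. The dashed line is the 0.5 rule: left of 20 reads the points above it are scattered single bins, and right of it they are bins of BUB3, LEU2, HMR, the end of IX, the end of VI and the bin beside LEU2.

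BUB3 (YOR026W, chromosome XV 379781 to 380806 in R64) gave a split of the same form in every letter. Its level, the mean of its 2 bins, in letter A was 0.01 in A1, -1.05 in A2, -1.34 in A3 and -0.08 in A4 evolved, and 0.07, -1.28, -1.15 and -0.25 in the same order in the non-evolved samples. In letter C it was -0.07 in C1, -1.08 in C2, 0.01 in C3 and -1.12 in C4 evolved, and 0.05, -0.97, 0.01 and -1.42 non-evolved. In letter D it was 0.11 in D1, -1.20 in D2, -0.03 in D3 and -1.12 in D4 evolved, and -0.05, -1.18, 0.08 and -1.12 non-evolved. The high pairs were thus A1 and A4, C1 and C3, and D1 and D3, the low pairs were A2 and A3, C2 and C4, and D2 and D4, and no sample of a high line overlapped one of a low line.

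Most of the BUB3 difference lay in the second of the bins, which holds 806 bases of the gene. It had 188 to 272 reads in the 6 high and 52 to 89 in the 6 low evolved samples, and 132 to 270 in the high and 46 to 78 in the low non-evolved samples. Its depth in low lines was 0.302 of that in high lines in the evolved and 0.312 in the non-evolved samples. The first bin, with 220 bases of BUB3 and part of HST3, a gene of the sirtuin family, stood at 0.681 and 0.631. Both bins differed among the 4 lines of every letter. In limma's F test across all bins the second had an adjusted p of 4.46e-07 in A, 1.23e-07 in C and 4.62e-07 in D, and the first had 0.00959, 0.0432 and 0.00513. The F test reads the same levels as the split rule and is not independent of it. The call of the first bin was lost in 2 of the 24 fits that left out 1 sample in A (without A1 or A3 non-evolved, adjusted p up to 0.145), in 19 in C (up to 0.599) and in 0 in D.

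LEU2 (YCL018W, chromosome III 91324 to 92418) split the lines in the opposite sense. Its level in letter A was 0.19 in A1, 0.86 in A2, 0.84 in A3 and 0.07 in A4 evolved, and -0.06, 0.54, 0.87 and 0.02 in the same order non-evolved. In letter C it was 0.02 in C1, 0.58 in C2, 0.12 in C3 and 0.93 in C4 evolved, and 0.02, 0.96, 0.01 and 0.94 non-evolved. In letter D it was 0.05 in D1, 0.83 in D2, 0.09 in D3 and 0.77 in D4 evolved, and 0.10, 0.82, -0.03 and 0.89 non-evolved. A2 and A3, C2 and C4, and D2 and D4 were high in both states, at 0.54 or above, and the other 6 lines were at 0.19 or below. The gap of this mean level was 0.45 in C evolved, just under the rule, and above 0.5 elsewhere.

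The lowest of the high LEU2 levels belonged to samples in which chromosome III itself was gained. In C2 evolved, III stood at 0.96 over the sample baseline (the median of the chromosome medians), and LEU2 at 0.58 over III was 1.54 over that baseline. In A2 non-evolved, III stood at 0.94, and LEU2 at 0.54 over III was 1.48 over the baseline. The bin with 677 bases of LEU2 split all 3 letters by the rule and had adjusted p-values of 0.00272 in A, 0.000247 in C and 0.00224 in D (limma's F test). The next bin, shared with NFS1, which encodes a cysteine desulfurase, split D alone by the rule (0.019, 0.0111 and 0.0172), and its calls in A, C and D were lost in 4, 2 and 5 of the 24 fits that left out 1 sample (adjusted p up to 0.145, 0.0745 and 0.179). The bin to the left of LEU2 holds no base of it and overlaps the Ty reading frame YCL019W and the tRNA gene SUP53. It was high in the same lines, split A by the rule, and was called in A (0.0449) and C (0.0198) but not in D (0.443). Its call in A was lost in 20 of the 24 fits without 1 sample, with an adjusted p of up to 0.209.

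HMR (HMRA2 at 293179 to 293538 and HMRA1 at 293835 to 294321 of chromosome III) set the same lines apart in both states of every letter, by less than BUB3, and its mean level passed the 0.5 rule in C and D but not in A non-evolved, where the gap was 0.46. HMRA1 encodes a homeodomain protein that with the alpha2 protein turns off haploid genes in diploid cells. In letter A the mean of the 2 HMR bins was 0.35 in A1, -0.36 in A2, -0.63 in A3 and 0.31 in A4 evolved, and 0.22, -0.24, -0.27 and 0.32 non-evolved. In letter C it was -0.31 in C1, 0.33 in C2, 0.27 in C3 and -0.32 in C4 evolved, and -0.27, 0.27, 0.33 and -0.34 non-evolved. In letter D it was 0.26 in D1, -0.27 in D2, 0.27 in D3 and -0.51 in D4 evolved, and 0.18, -0.36, 0.32 and -0.36 non-evolved.

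The high lines at HMR were A1 and A4, C2 and C3, and D1 and D3, the same in both states, and they did not overlap the low lines, which were at -0.24 or below. The first HMR bin split A and D by the rule and missed it in C evolved, where the gap was 0.49. Its adjusted p was 0.00064 in A, 0.00305 in C and 0.0025 in D (limma's F test). The second bin had 0.0306, 0.0365 and 0.0483, and these calls were lost in 9, 14 and 22 of the 24 fits that left out 1 sample, with an adjusted p of up to 0.211, 0.325 and 0.506. Read against the sample baseline and not against chromosome III, A2 non-evolved stood at 0.70 at HMR, above A1 at 0.22 and A4 at 0.32. III stood at 0.94 in that sample, so the split of A does not hold on that scale. The sides in C and D held there, with smaller gaps of 0.47 and 0.39. On that scale limma's F test called neither HMR bin in any letter. The adjusted p in A, C and D was 0.111, 0.132 and 0.232 for the first bin and 0.358, 0.18 and 0.874 for the second.

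**Figure D2:**
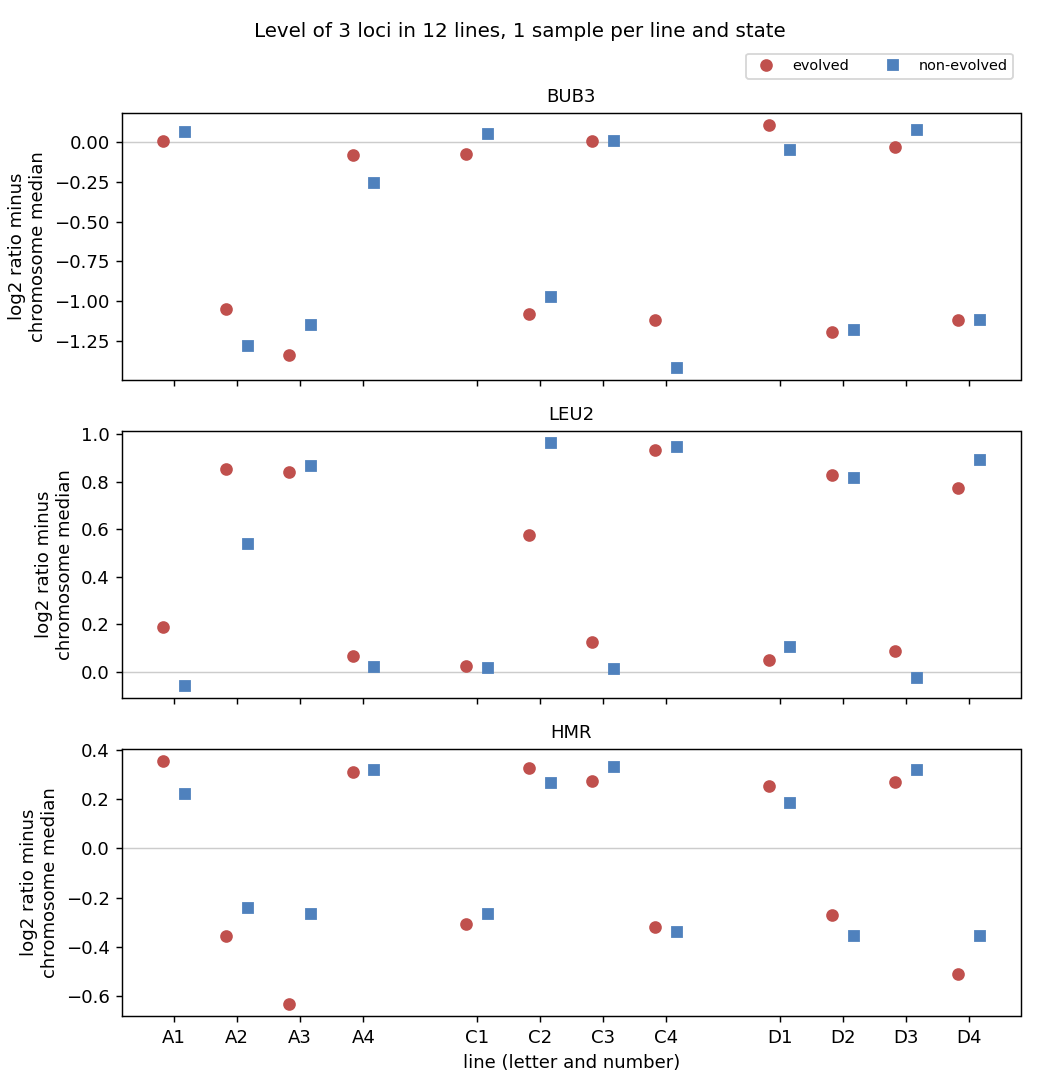
Level (log2 ratio minus the chromosome median) of BUB3, LEU2 and HMR in each of the 12 lines, evolved as circles and non-evolved as squares, 1 sample each. In every letter 2 lines lie apart from the other 2 at each locus, with BUB3 low where LEU2 is high, while HMR is high in the same lines as BUB3 in A and D but not in C.

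The splits at BUB3 and LEU2 went together and the split at HMR did not follow them in every letter. At BUB3 and LEU2, opposite lines were high in 3 of 3 letters and in both states: every line low at BUB3 was high at LEU2 and the reverse. At BUB3 and HMR the same lines were high in A and D, and in C they shared 1 line, C3, with C1 high at BUB3 alone and C2 high at HMR alone. All 4 combinations of BUB3 side and HMR side were therefore present in letter C, 1 line each. HMR and LEU2, which lie on the same chromosome, had opposite lines high in A and D and shared C2 in letter C. With 3 letters these relations are a description, and no test was made of them.

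The 8 lines of letters B, E, F and G showed the link of BUB3 with LEU2 but the other pairing with HMR. Among them B3, E3, E4, F4 and G4 were low at BUB3, and their LEU2 levels were 0.59 to 0.97 evolved and 0.52 to 1.11 non-evolved. B2, F3 and G1, high at BUB3, had LEU2 at 0.07 to 0.13 evolved and 0.01 to 0.13 non-evolved. At HMR, 4 of the 5 lines low at BUB3 were high, between 0.21 and 0.28 in either state, and B3 was at -0.55 evolved and -0.34 non-evolved. The 3 lines high at BUB3 were all low at HMR in the evolved state, at -0.38 to -0.34. Non-evolved, F3 and G1 were at -0.56 and -0.31, and B2 lay between the sides at 0.04.

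**Figure D3:**
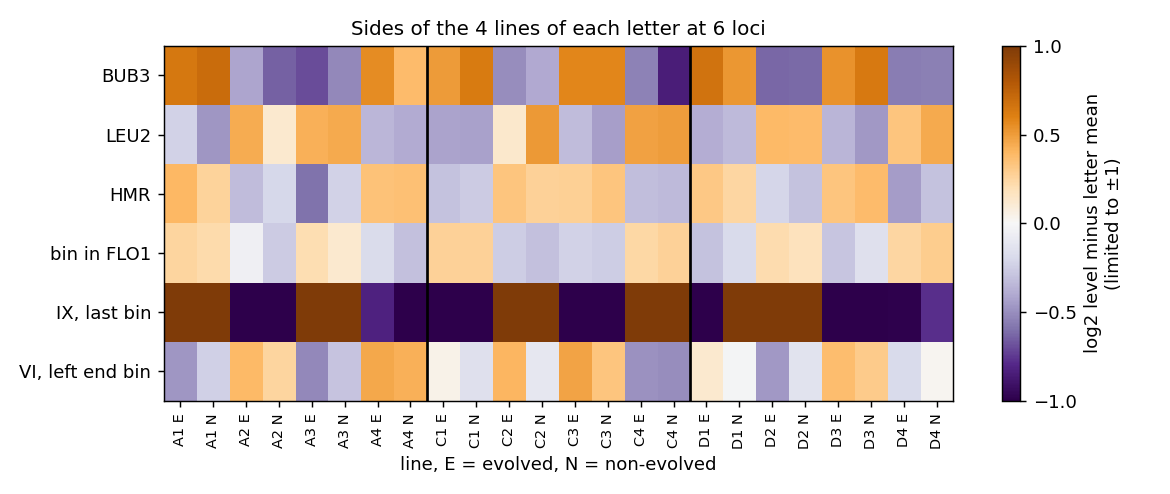
Level of 6 loci in the 24 samples minus the mean of the 8 samples of the same letter (log2, colour limited to plus and minus 1; E evolved, N non-evolved; vertical lines part the letters A, C and D). BUB3 and LEU2 have opposite colours throughout, HMR follows BUB3 in A and D but not in C, and the other 3 loci follow neither in all letters.

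The splits at BUB3 and HMR did not reach past the bins of the locus, and that at LEU2 took in the bin to its left. Outside the BUB3 bins, the mean of the high lines minus that of the low lines stayed between -0.47 and 0.41 over 10 neighbouring bins, in every letter and state, and 0 of 60 values reached 0.5. Around HMR it stayed between -0.23 and 0.31, again with 0 of 60 values past 0.5. In the bin to the left of LEU2, all 6 values of the letters and states passed 0.5, at 0.52 to 0.77. Over the 6 other bins counted around LEU2, 2 of 36 values passed 0.5, at -0.69 in C evolved and 0.51 in A non-evolved, both in the Ty reading frame YCL019W on the left. Bins with fewer than 20 reads, which include most of that Ty, were not counted.

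**Figure D4:**
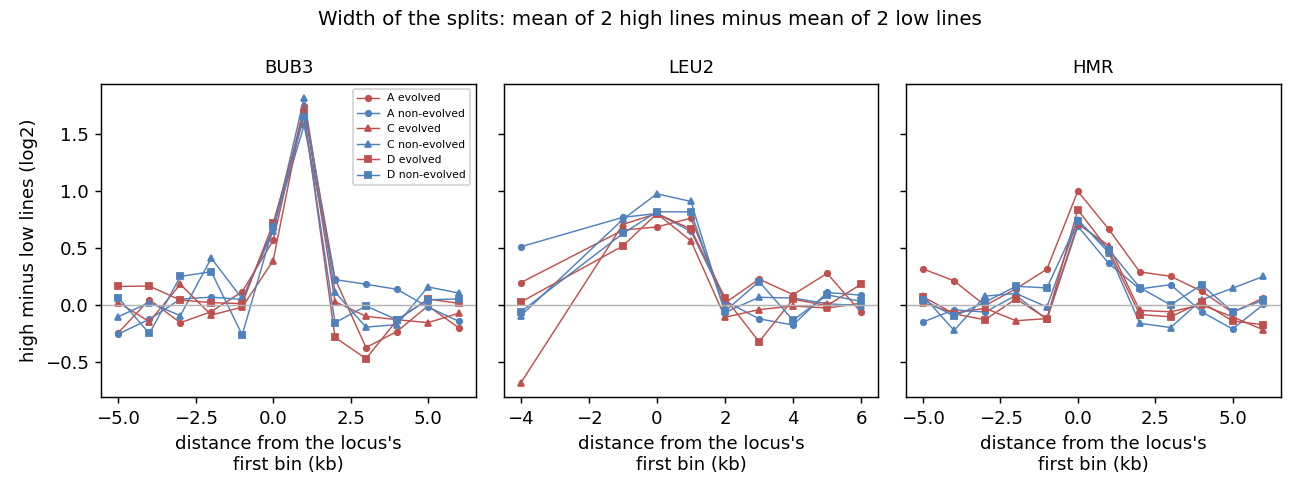
Mean level of the 2 high lines minus that of the 2 low lines (log2) against the distance from the first bin of each locus in kb, for each letter (circles A, triangles C, squares D) in evolved (red) and non-evolved samples (blue), in bins with a median of at least 20 reads. The differences stand out in the bins of the locus and, for LEU2, in the bin to its left.

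In some letters other well-covered bins split the lines along pairs seen at BUB3, LEU2 or HMR, and in others along pairs seen at none of these. The last bin of chromosome IX (439001 to 439888, with no listed gene) had the widest 2 to 2 gaps among bins of at least 20 reads. In letter A it stood at -0.09 in A1, -2.87 in A2, 0.16 in A3 and -2.12 in A4 evolved, and at 0.34, -3.09, 0.05 and -2.77 non-evolved. In letter C it stood at -2.90 in C1, 0.14 in C2, -3.14 in C3 and 0.17 in C4 evolved, and at -2.92, 0.25, -3.14 and 0.13 non-evolved. In these letters the high lines were A1 and A3, and C2 and C4 (adjusted p = 0.00797 and 0.00159, limma's F test), and the call in A was lost without A2 non-evolved (0.0561). The pair in C is the one high at LEU2 and low at BUB3, whereas A1 and A3 were a pair at none of BUB3, LEU2 and HMR.

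In letter D the same bin was not the same in both states. It stood at -2.93 in D1, 0.09 in D2, -2.52 in D3 and -2.49 in D4 evolved, and at 0.56, 0.33, -2.75 and -2.27 non-evolved. D1 was the only one of the 12 lines whose evolved and non-evolved samples lay on different sides there, and the F test did not call the bin in D (adjusted p = 0.143). At BUB3, LEU2 and HMR, D1 kept its side.

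A bin inside FLO1 (YAR050W, chromosome I 203403 to 208016), which encodes a cell-wall flocculin with internal repeats, lay above its chromosome in all 24 samples. Its level in letter A was 1.37 in A1, 1.06 in A2, 1.32 in A3 and 0.93 in A4 evolved, and 1.34, 0.85, 1.23 and 0.81 non-evolved. In letter C it was 1.40 in C1, 0.88 in C2, 0.90 in C3 and 1.37 in C4 evolved, and 1.40, 0.82, 0.88 and 1.40 non-evolved. In letter D it was 0.82 in D1, 1.34 in D2, 0.84 in D3 and 1.37 in D4 evolved, and 0.93, 1.30, 0.97 and 1.41 non-evolved. The same lines were high in both states of every letter (A1 and A3, C1 and C4, D2 and D4), but the gaps, 0.26 to 0.53, missed the rule in at least 1 state of each. The pair in D is the one high at LEU2 and low at BUB3 and HMR, and the pair in C is the one low at HMR. A1 and A3 were a pair at none of these loci, but were the pair high at the last bin of IX. The F test called the bin in C (adjusted p = 0.0098) and D (0.0483), not in A (0.144), and the call in D was lost in all 24 fits without 1 sample (adjusted p 0.0556 to 0.456). FLO1 has close relatives, so reads may be shared among them.

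At the left end of VI, a bin without a listed gene (4001 to 5000) was high in A2 and A4, at 1.20 and 1.27 against 0.34 in A1 and 0.30 in A3 evolved, and at 1.07 and 1.25 against 0.58 and 0.52 non-evolved (adjusted p = 0.0096, limma's F test, lost in 3 of 24 fits without 1 sample, adjusted p up to 0.0858). In C the same bin was high in C2 and C3, at 1.35 and 1.43 evolved and 0.85 and 1.29 non-evolved, against 1.0 and 0.47 in C1 and C4 evolved and 0.80 and 0.45 non-evolved (0.0431, lost in 16 of 24 fits without 1 sample, adjusted p up to 0.433). The lines highest at this bin in C are the pair high at HMR, but C2 and C1 were nearly tied non-evolved (0.85 and 0.80). In A the pairs at this bin and at HMR share 1 line, A4. The lines low at it in A, A1 and A3, are those high at the last bin of IX and at the FLO1 bin. In C the next bin (5001 to 6000) was instead high in C1 and C3, the pair high at BUB3. It stood at 1.14 and 0.90 in C1 and C3 evolved and 1.17 and 1.05 non-evolved. In C2 and C4 it stood at 0.67 and 0.40 evolved and 0.47 and 0.61 non-evolved.

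Some called bins set 1 line apart and not 2. A bin at the end of YRF1-4 (YLR466W, on XII), of the repeated helicase family at chromosome ends, was low in A3, at -5.83 evolved and -4.33 non-evolved, against -1.21 to -0.58 in the other evolved and -2.49 to -0.51 in the other non-evolved samples of A (adjusted p = 4.46e-07). In C it was low in C1, at -3.86 evolved and -4.12 non-evolved, against -1.20 to 0.05 in the other evolved and -1.44 to -0.58 in the other non-evolved samples (3.59e-05). Since the copies of this family are nearly identical, the copy that differs cannot be told from these bins.

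The F test as a whole called 11 bins in A (0.0931% of 11810), 17 in C (0.144%) and 8 in D (0.0677%), and 560, 537 and 522 bins had an unadjusted p under 0.05. These 36 calls fell in 19 bins, and the 6 bins of BUB3, LEU2 and HMR were called in all 3 letters. No bin elsewhere was. The same 2 lines were highest in both states in 30 of the 36 calls. The F test sets line differences against the spread between the states of a line, so this agreement is partly built into the calls. The median range of the 4 line means over all bins tested was 0.19 in each letter, against 1.81, 1.90 and 1.74 in the main BUB3 bin of A, C and D.

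Of the calls not yet named, several lay in Ty reading frames: YPL257W-B in A, and YFL002W-A with YFL002W-B, YPR158C-D and YGR027W-B in C, with median reads of 5.5 to 22. In C the bin with YFL064C and YFL065C (adjusted p = 0.0198), a further bin on VI (5001 to 6000, 0.0415) and a bin on III without a listed gene (0.00123), high in C2, were called too. In the fits without 1 sample these were lost 5, 14 and 1 times of 24 (adjusted p up to 0.174, 0.255 and 0.0681), and YPR158C-D and YGR027W-B 5 and 3 times (up to 0.818 and 0.225). In D the MAT bin at 200001 to 201000 of III was called (0.00475), with a median of 16.5 reads. It stood at -4.32, -3.53, -4.17 and -2.77 in D1 to D4 evolved and at -4.18, -3.98, -3.60 and -2.47 non-evolved, highest in D4 in both. This call was lost when either D4 sample was left out (adjusted p up to 0.358), relative to the sample baseline (0.0586) and with a variance trend (0.714). Its 2 highest lines were D2 and D4, the low lines at HMR, in the evolved samples, and D3 and D4 in the non-evolved samples.

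Apart from BUB3, no gene of the spindle checkpoint stood in a called bin. Of that list, 1 of 6 members was called in each letter, with a median range of line means, each member taken at its widest bin, of 0.28 in A, 0.32 in C and 0.28 in D, and BUB1, MAD1, MAD2, MAD3 and MPS1 had adjusted p-values of 0.983 or above. Of the chromosomal passenger and shugoshin genes IPL1, SLI15, BIR1, NBL1 and SGO1, which act in the correction of spindle attachments, 0 of 5 were called (median range 0.26, 0.24 and 0.30) in limma's F test, and 0 of them had a bin with an unadjusted p under 0.05 in any letter. LEU2 was the 1 called of 8 strain markers (median range 0.26, 0.28 and 0.25), with URA3, HIS3, TRP1, ADE2, LYS2, CAN1 and MET17 not called. Of 6 mating-type genes, HMRA1 and HMRA2 were called in each letter and MATALPHA1 and MATALPHA2, which share 1 bin, in D as well (median range 0.94, 0.87 and 0.81). MATALPHA2 also lies in the bin to the left (199001 to 200000, median 67 reads), which was not called in D (adjusted p = 0.997, limma's F test). Among 16 tandem or repeated genes, 12 had a bin that could be tested, and FLO1 was called in C and D, while 0 were called in A, where 4 had a bin with an unadjusted p under 0.05 (median range 0.51, 0.43 and 0.57). Of 6 genes within 5 kb of BUB3, HST3, which shares a bin with it, was the 1 called. Called members included, 2, 3 and 3 spindle checkpoint genes in A, C and D had a bin with an unadjusted F-test p under 0.05. So had 3, 3 and 1 strain markers, 5, 5 and 4 mating-type genes and 1, 1 and 2 genes near BUB3. Of the tandem or repeated genes, 3 had such a bin in C and 6 in D. Over all bins, 560, 537 and 522 of 11810 had such a p in A, C and D. A gene that spans several bins has more chances of one, and the share over all genes was not computed. These list counts therefore cannot be told from chance.

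Chromosome gains were also laid out by letter, since they are measured from other bins. A gain was a chromosome level of at least 0.3 over the sample baseline. Within letter A, XI was gained in A1 and A4 in both states (0.99 and 1.0 evolved, 0.99 and 1.0 non-evolved), with A2 and A3 between -0.03 and 0.0, so a whole chromosome split that letter along the same lines as BUB3 and HMR. XII was gained in the same 2 lines in the non-evolved samples only. Across the letters, all 6 lines low at BUB3 had a gain in both states, 11 gains evolved and 9 non-evolved, drawn from I, II, III, VIII and X. Of the 6 lines high at BUB3, A1 and A4 had gains and C1, C3, D1 and D3 had none.

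At the threshold of 0.3, the gains that the low lines of a letter shared were not the same in the 2 states. In A, chromosome II was gained in A2 and A3 evolved (0.82 and 0.86) and in A2 alone non-evolved (0.89). In C, II was gained in C4 alone evolved (0.85) and in C2 and C4 non-evolved (0.91 and 0.90). In D, I was gained in no evolved sample and in D2 and D4 non-evolved (0.89 and 0.90), but its evolved levels of 0.11 in D2 and 0.18 in D4 lay between 0.1 and the threshold. Such intermediate levels numbered 9 in the evolved and 6 in the non-evolved samples of the 6 lines low at BUB3. Over the 12 lines there were 13 gains evolved and 13 non-evolved, 1.08 ± 0.996 evolved and 1.08 ± 0.90 non-evolved per line (SD, n = 12), and the evolved sample had the larger number in 4 lines, the smaller in 4 and an equal number in 4. The mean difference was 0.0 ± 0.853 (p = 1, exact paired sign-flip permutation test, two-sided).

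**Figure D5:**
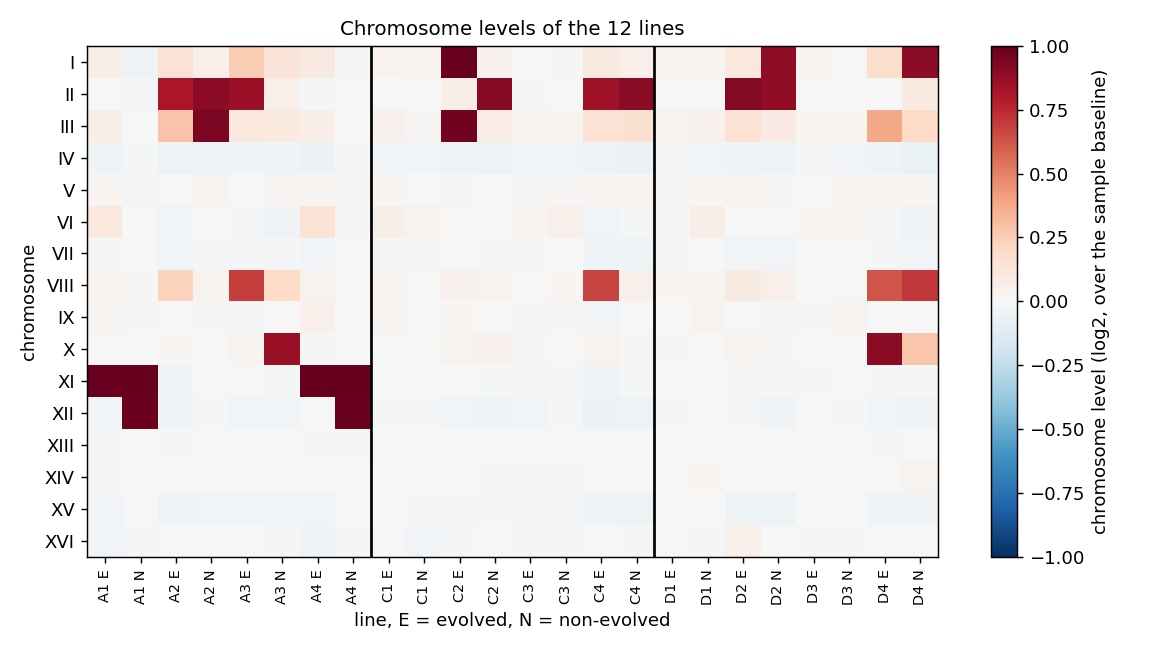
Level of each of the 16 chromosomes over the sample baseline (log2) in the 24 samples (E evolved, N non-evolved; vertical lines part the letters A, C and D). XI is high in A1 and A4 in both states, and the gains of I, II, III, VIII and X fall in A2, A3, C2, C4, D2 and D4.

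Between the states the bins changed little beyond the spread of that change from line to line. With the line as a block, limma called 1 of 11810 bins (0.00847%), on XV 595001 to 596000, within the Ty reading frames YOR142W-A and YOR142W-B. Its level was -5.0 to -3.87 (median -4.49) in the 12 evolved and -4.42 to -3.50 (median -3.80) in the 12 non-evolved samples, ranges that overlap. It fell by 0.59 (SE 0.0952, adjusted p = 0.0429), was lower in the evolved sample of 11 of 12 lines, and rested on a median of 12 reads. Without the replicate block 0 bins were called, and 589 bins had an unadjusted p under 0.05 with it. The test of whether the change differed between letters called 0 of 11810 bins (limma, lowest adjusted p = 0.214), with 579 at an unadjusted p under 0.05.

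The wildtype samples did not keep one side at each of the loci. LY1 had BUB3 at -0.03 evolved and 0.01 non-evolved, and LEU2 at 0.20 and 0.06, beside the lines high at BUB3 and low at LEU2. At HMR it stood at -0.53 evolved and 0.35 non-evolved, at the last bin of IX at -2.57 and 0.30, and at the FLO1 bin at 0.87 and 1.47. Its 2 samples thus lay on different sides at these 3 loci, whereas each of the 12 lines kept its side at HMR and at the FLO1 bin. With 1 sample per state there is no replicate check of this. The evolved_Bub3 sample of LY1 stood with the evolved one, at -0.25, -3.29 and 0.99 in the same order.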

How the data were processed

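Genomic DNA libraries made by tagmentation were sequenced as paired-end reads, per the labels' protocols. Trimmomatic 0.39, BWA 0.7.17, Picard 2.27.1 and GATK are named per the submitters' processing notes, with settings not given in the sources used here. Each of the deposited values is the log2 copy ratio of a bin of 1000 bases, in the format of GATK's copy-number tools with R64 contigs, per the file headers. Whole reads could be recovered in 100% of covered bins of the median sample (tolerance 0.01 reads), which shows scaling by each sample's median bin. No count test was run, since the unit is a log2 ratio.

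A bin had to hold reads in at least 50% of the 24 samples, which removed 269 of 12079, and other empty bins were given 0.5 reads. The level was the log2 ratio minus the chromosome's median in that sample. limma 3.58.1 in R 4.3.3 fitted line and state on all 24 samples, with an F test over the 4 lines of a letter, a test of evolved against non-evolved samples with the line as block, and Benjamini-Hochberg adjustment over 11810 bins at 0.05. The fit was checked on simulated data. Gene positions came from a RefSeq table of R64. Samples were paired by the line code in their titles. The deviations of the samples of a line correlated by -0.02 to 0.08 over 11600 bins, 0 of 12 above 0.1. Few bins differed among lines in the F test, so this correlation cannot decide the pairing. At BUB3, LEU2, HMR and the FLO1 bin, samples paired by title lay on the same side in every letter. At the last bin of IX those of D1 did not. No pair of samples of the same state agreed within sampling noise (66 pairs in each state).

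The text names BUB3, LEU2 and HMR, the genes of bins that split 2 to 2, the 10 called bins with the widest range per letter, the bins called between states, and the members of the lists that lie in called bins. A further bin on VI and a bin on III, both called in C, the CHS6 bin and the boundary of 20 reads were singled out after their values were seen. The members and lists were chosen with earlier results of these data known. Alternative settings covered the gap, the centring, the depth filter, the value of empty bins, the block and leaving out samples.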

Additional observations from a re-analysis of the deposited data

Results flagged for a closer look

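In the evolved samples of letter D, the last bin of IX stood at 0.092 in D2, far above the other 3 lines, at -2.93 to -2.49. In the evolved samples of letter A, the YRF1-4 bin stood at -5.83 in A3, far below the other 3, at -1.21 to -0.58. These were 2 of 48 groups of 4 samples examined, where chance flags about 1 in 20.

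The evolved_Bub3 sample of C2, which enters no comparison above, had BUB3 at 0.76 over chromosome XV, against -1.08 in C2 evolved and -0.97 in C2 non-evolved, and -0.03 in LY1 evolved and 0.01 in LY1 non-evolved. The other evolved_Bub3 samples of the series stood higher at BUB3, at 1.193 in LY1, 1.420 in E3 and 1.335 in G4. At LEU2 (1.08) and HMR (0.15) the evolved_Bub3 sample of C2 lay on the side of C2. It also did at the last bin of IX (0.07) and the FLO1 bin (0.91). At the VI bin 4001 to 5000 it stood at 0.75, below C2 evolved (1.35) and non-evolved (0.85). C1, on the low side there, stood at 1.0 evolved and 0.80 non-evolved. A bin that overlaps CHS6 was not called in C (adjusted p = 0.0889, limma's F test). There the evolved_Bub3 sample of C2 stood at 0.20, against -0.27 in C2 evolved and -0.35 in C2 non-evolved. C1 and C4 stood between 0.03 and 0.23 there. There is 1 evolved_Bub3 sample of line C2 and no replicate check.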

How the results depend on the processing

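The sides of the lines at BUB3 and LEU2 held under every centring and bin choice tried, and at HMR in all but 1 setting. With the bin that holds the middle of the locus, the smaller gap of A, C and D was 1.15, 1.62 and 1.42 at BUB3 and 0.62, 0.49 and 0.61 at HMR. Relative to the sample baseline it was 0.70, 0.93 and 0.75 at LEU2 and -0.48, 0.47 and 0.39 at HMR, so HMR in letter A reversed there.

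The number of bins that split A, C and D 2 to 2 was 4, 4 and 2 at a gap of 0.7, and 45, 51 and 41 when the gap was taken on the mean of the states. It was 11 in D at a gap of 0.4, 670 in A relative to the sample baseline, where the gained XI counts bin by bin, and 6 in C with empty bins at 2 reads. With at least 50 reads it was 4 in A and 3 in C, and with at least 20 reads, chosen after seeing the data, 5 in A and 4 in C.

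The F test called 25, 36 and 24 bins on the 8 samples of the letter alone, 961, 6 and 5 relative to the baseline, 10 in C over all nuclear bins, and, in settings added after seeing the data, 17 in A with at least 20 reads and 13 in D with a variance trend. Leaving out 1 sample gave 7 to 13 bins in A, 10 to 18 in C and 4 to 8 in D. All 24 such fits kept 10 of the 18 calls on BUB3, LEU2 and HMR bins and 6 of the 18 elsewhere. Of the 18 on these loci, 7 were kept in every setting as well, all in BUB3 and LEU2 bins. The HMR bins lost their calls in every letter relative to the sample baseline.

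The bin called between the states is not stable: with no replicate block, over all nuclear bins and relative to the baseline 0 bins were called, with at least 50 reads 2, and without 1 line 0 to 3. Leaving out A2, A3, A4, C2, C4, D1, D3 or D4 gave 0. The block changed no other call. The difference in gains per line stayed between -0.09 and 0.17 in the settings tried, and no p passed. Of the 12 splits in bins with a median under 20 reads the F test called 0, and of the 14 others it called 14, though it reads the same levels as the rule.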
